A study of Homo sapiens with 28 samples.

Results

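RNA levels of 10 enzymes that make, convert or activate androgens were followed in LNCaP cells: SRD5A1, SRD5A3, AKR1C1, AKR1C2, AKR1C3, HSD17B2, HSD17B11, HSD17B14, STS and DHRS7. They were chosen by gene symbol, and all 10 were found among the 61815 human genes of the deposited count table. LNCaP is an androgen-responsive human prostate cancer line, and the cells of all 28 libraries were first deprived of androgen, in serum stripped of its steroids with charcoal. In the first experiment the cells received for 24 h vehicle (0.1% DMSO), 1 µM Senexin B, 0.1 nM R1881, or R1881 together with Senexin B, with 3 libraries per group. In the second they received for 72 h vehicle, 500 nM SNX631, 1 nM R1881, or R1881 together with SNX631, with 4 libraries per group. The androgen, R1881, is a synthetic ligand of the androgen receptor, and both inhibitors act on CDK8 and CDK19, the kinases of the Mediator kinase module. Time, androgen dose, inhibitor and experiment changed together, so their parts cannot be told apart, and the experiments are set side by side without a test between them. The doses are taken from the sample labels; the label and the study's text disagree on the dose of Senexin B.

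Androgens are made from cholesterol through a chain of oxidations and reductions, and tissues such as the prostate finish the last steps themselves. Steroid sulfatase frees dehydroepiandrosterone from its circulating sulfate, reductive 17-ketosteroid enzymes such as AKR1C3 turn androstenedione into testosterone, and the 5-alpha-reductases turn testosterone into dihydrotestosterone, the strongest natural ligand of the androgen receptor. Other dehydrogenases, among them HSD17B2, HSD17B11 and AKR1C2, work in the opposite sense and turn active androgens into weaker ones. R1881 was supplied to the cells as a ready ligand, so the values below describe the RNA of these enzymes and not the steroids they make.

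The members lie on 7 chromosomes in GENCODE 29 on GRCh38, and each is a protein-coding gene. The 3 AKR1C genes stand next to each other on chromosome 10, AKR1C1 at chr10:4963253-4983283 on the plus strand, AKR1C2 at chr10:4987400-5018031 on the minus strand and AKR1C3 at chr10:5035354-5107686 on the plus strand. SRD5A1 lies at chr5:6633343-6674386 and SRD5A3 at chr4:55346109-55373096, both on the plus strand. HSD17B11 lies at chr4:87336610-87391386 (minus), HSD17B2 at chr16:82035004-82098534 (plus) and HSD17B14 at chr19:48813017-48836678 (minus). STS lies at chrX:7219456-7354810 (plus) in this annotation, while RefSeq also gives it start sites upstream of that interval, and DHRS7 at chr14:60144120-60169856 (minus).

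Shared sequence limits how far reads of the AKR1C genes can be told apart. The coding sequences of AKR1C1 and AKR1C2 were identical at 953 of 972 bases (98.0%), while AKR1C3 was identical to AKR1C1 at 92.1% and to AKR1C2 at 91.6% of aligned bases. The promoters of AKR1C1 and AKR1C2 were as close, with 288 identical bases among 292 aligned (98.6%), and are shown for that reason. They are RefSeq windows on GRCh38.p14 of 250 bases before and 50 after the start of transcription, chr10:4963165-4963464 on the plus strand and chr10:5003808-5004107 on the minus strand, printed 5′ to 3′ with the bases that are not shared in capitals.
AKR1C1: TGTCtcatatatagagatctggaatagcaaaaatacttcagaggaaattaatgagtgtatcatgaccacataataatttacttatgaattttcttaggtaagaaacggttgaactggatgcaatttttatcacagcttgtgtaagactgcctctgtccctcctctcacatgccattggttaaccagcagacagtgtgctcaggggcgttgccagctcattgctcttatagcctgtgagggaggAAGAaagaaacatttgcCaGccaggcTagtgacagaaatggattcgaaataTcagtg
AKR1C2: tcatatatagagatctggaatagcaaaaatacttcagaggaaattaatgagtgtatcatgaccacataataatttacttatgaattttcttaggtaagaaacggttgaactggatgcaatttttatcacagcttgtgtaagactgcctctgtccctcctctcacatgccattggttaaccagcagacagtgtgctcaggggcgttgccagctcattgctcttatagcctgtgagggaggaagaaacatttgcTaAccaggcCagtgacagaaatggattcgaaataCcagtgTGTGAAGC

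RefSeq windows of this kind were given for 7 of the members, in 12 entries of which STS has 5 and AKR1C3 has 2. The windows of the 3 members that R1881 raised and that have an entry are shown, to let their promoters be compared: SRD5A1 at chr5:6633190-6633489 (plus strand), HSD17B11 at chr4:87391139-87391438 (minus strand) and the STS window that holds an androgen receptor half-site nearest to its start, chrX:7147040-7147339 (plus strand). Capitals mark that half-site, AGAACA searched on both strands.
SRD5A1: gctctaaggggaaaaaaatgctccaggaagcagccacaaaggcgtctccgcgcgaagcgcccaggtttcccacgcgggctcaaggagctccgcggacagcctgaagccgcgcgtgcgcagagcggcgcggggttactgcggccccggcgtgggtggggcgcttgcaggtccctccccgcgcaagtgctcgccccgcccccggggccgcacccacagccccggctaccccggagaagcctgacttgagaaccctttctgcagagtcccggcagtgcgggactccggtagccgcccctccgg
HSD17B11: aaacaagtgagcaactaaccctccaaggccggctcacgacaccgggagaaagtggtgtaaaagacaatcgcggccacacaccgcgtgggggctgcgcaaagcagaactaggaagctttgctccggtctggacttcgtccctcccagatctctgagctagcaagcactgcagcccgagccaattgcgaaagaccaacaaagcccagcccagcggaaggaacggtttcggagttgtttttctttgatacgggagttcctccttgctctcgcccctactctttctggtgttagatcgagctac
STS: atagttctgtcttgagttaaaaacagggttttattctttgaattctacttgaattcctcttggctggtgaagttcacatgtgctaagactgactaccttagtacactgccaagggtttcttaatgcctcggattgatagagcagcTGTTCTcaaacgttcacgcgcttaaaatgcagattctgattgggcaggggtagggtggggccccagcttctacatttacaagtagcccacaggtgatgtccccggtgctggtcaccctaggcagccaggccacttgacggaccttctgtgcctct

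The half-site was present in 2 of the 12 windows, both of STS, with its first base 105 bases before one start and 249 bases before another. Of all 35116 RefSeq promoter windows of the same length, 14.8% held it. The core of the antioxidant response element, TGACNNNGC on either strand, was in 2 of the 12 windows, 1 of SRD5A3 and 1 of STS, against 13.3% of all windows. It was in neither the AKR1C1 nor the AKR1C2 window. The motifs did not overlap each other in these windows, and a match or its lack says nothing of binding.

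Total counts per library ranged from 9846595 to 33809419, with the highest in replicate 3 of the 24 h vehicle group and no other above 15248512. Levels are given as counts per 1000000 (CPM) after TMM scaling, which corrects for the make-up of a library. All 8 luminal prostate markers examined were present, at a summed level between 2940 and 5125 CPM. The 3 basal markers summed to at most 0.441 CPM. Of the 5 non-epithelial markers, COL1A1 made up nearly all of a sum of 7.36 to 31.5 CPM, and the other 4 summed to at most 0.282 CPM. The androgen labels were checked on KLK3, which encodes PSA, whose log2 fold change with R1881 was 6.15 ± 0.08 (SE) in the first experiment and 6.57 ± 0.09 in the second. KLK2 changed by 7.47 ± 0.09 and 7.45 ± 0.07 and FKBP5 by 3.65 ± 0.05 and 3.86 ± 0.03 in the same comparisons.

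The members covered a wide range of levels before any treatment. Compared per kilobase of exon, DHRS7 stood highest in 24 h vehicle at 100.3 ± 1.96 CPM per kb (SD, n = 3). SRD5A1 at 7.32 ± 0.20, SRD5A3 at 7.22 ± 0.37 and STS at 4.46 ± 0.15 followed, and SRD5A1 and SRD5A3 did not differ beyond their spread. HSD17B14 at 3.05 ± 0.05 and HSD17B11 at 2.65 ± 0.54 were also within each other's spread. The AKR1C genes stood far below, AKR1C3 at 0.399 ± 0.15, AKR1C1 at 0.169 ± 0.033 and AKR1C2 at 0.164 ± 0.058, and HSD17B2 had no count. The plot of all 10 members by library shows these levels and every value behind the comparisons below.

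**Figure D1:**
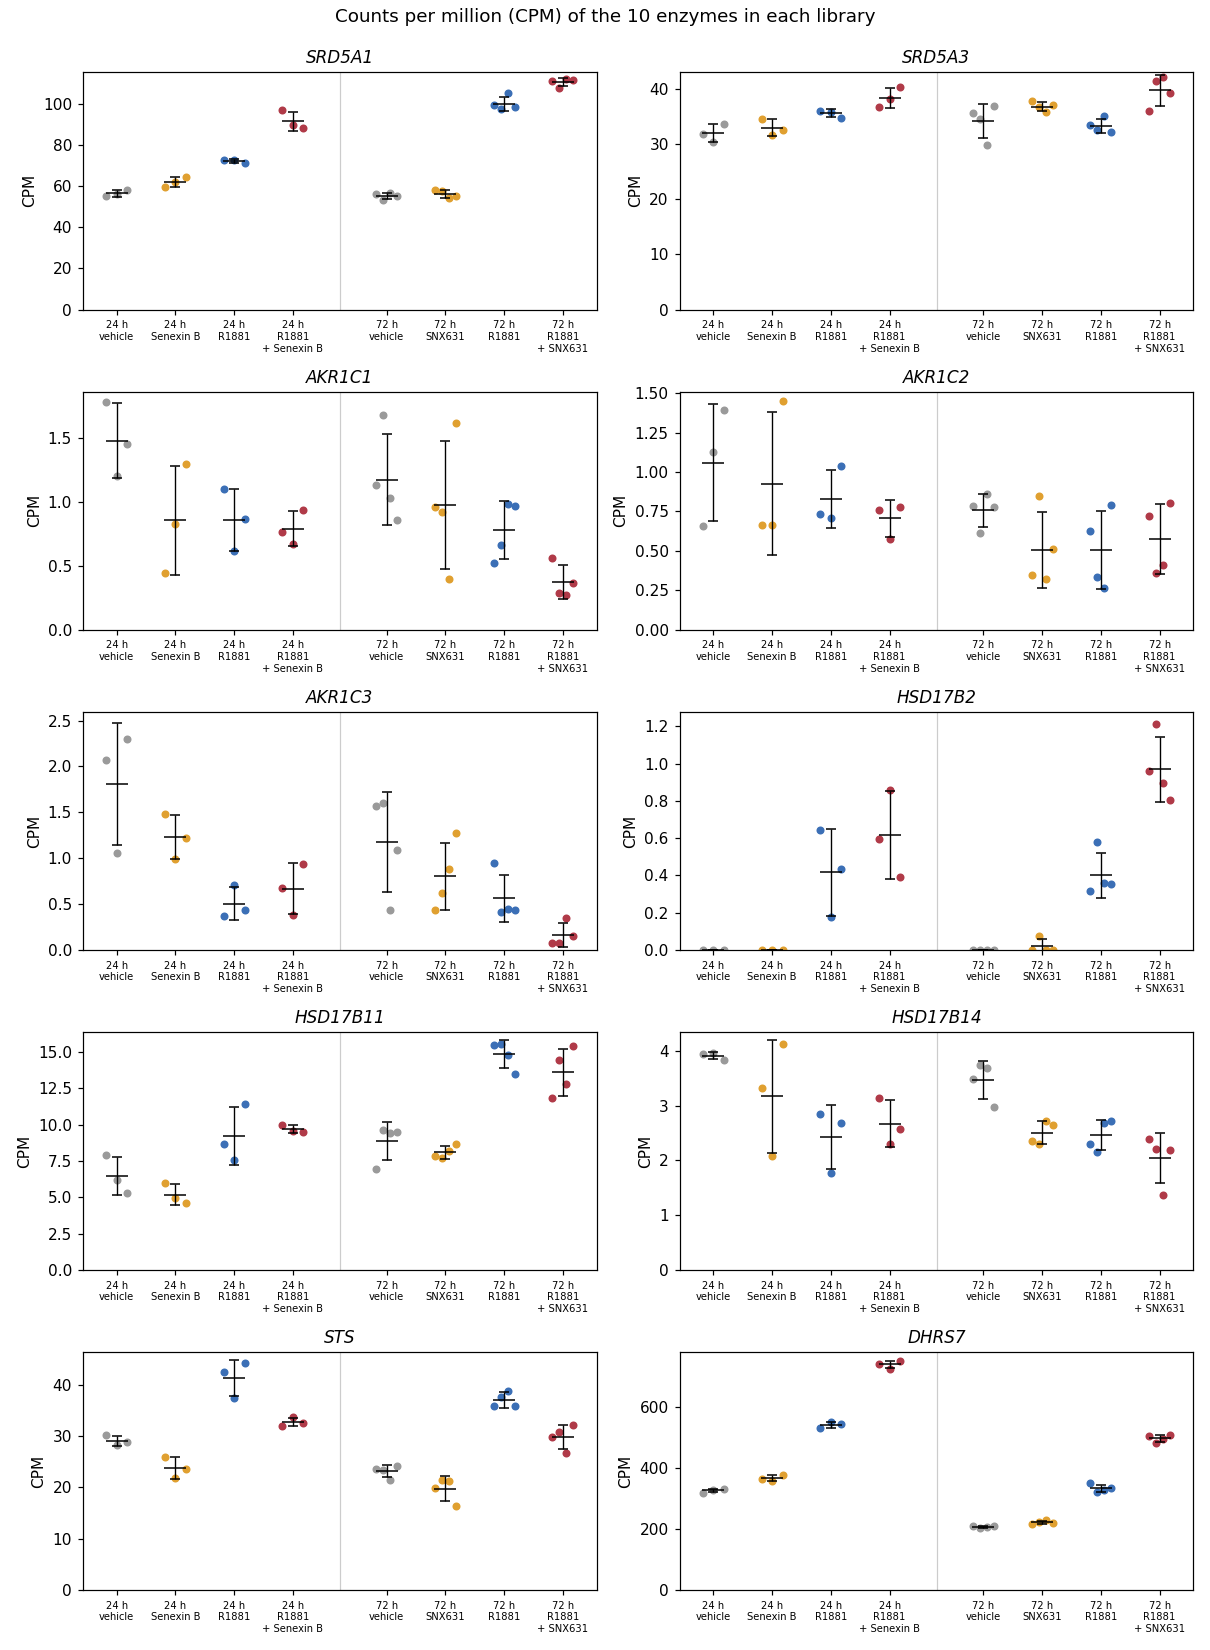
Each panel plots 1 enzyme, with the 8 treatment groups on the x axis and CPM (linear from 0) on the y axis; each point is 1 library, the black bar the group mean and the whiskers ± SD. DHRS7, SRD5A1, STS and HSD17B11 stand higher in the groups with R1881 than in vehicle, the AKR1C genes reach at most 2.30 CPM, and HSD17B2 has counts almost only where R1881 was present.

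Calls required both a fold change over 1.5 and an adjusted p (false discovery rate, FDR) under 0.01 in edgeR's quasi-likelihood test over all genes. Counts of at least 10 in enough libraries were needed for a test, which left 9 members at 24 h, where HSD17B2 was too low, and 8 at 72 h, where AKR1C2 was too low as well. R1881 against vehicle raised HSD17B11 and DHRS7 at 24 h, beside 9.81% of all 15948 genes tested, and lowered AKR1C3 and HSD17B14, beside 9.19%. At 72 h R1881 raised SRD5A1, HSD17B11, STS and DHRS7, 4 of 8 members tested beside 9.7% of all 16074 genes. With all libraries, TMM scaling and the filter, edgeR called no member lower at 72 h, beside 10.1% of all genes. DESeq2 called none lower either. AKR1C3 and HSD17B14 nonetheless had a lower level at an unadjusted p under 0.05 in edgeR. With no filter on low counts edgeR called AKR1C3 lower (-1.09, FDR 0.00787). The median log2 change was 0.14 over the 9 members tested at 24 h and 0.32 over the 8 tested at 72 h. Over all genes it was -0.02 and -0.01. The member medians are not of the same set, since AKR1C2 was tested only at 24 h. With no filter on low counts AKR1C2 lay at -0.57 at 72 h. The 72 h median falls between SRD5A3 at -0.04 and STS at 0.68, with no member between them. Scaling by library totals alone moved every log2 change with R1881 at 72 h down by 0.10, which turned 1559 higher and 1626 lower genes into 1299 and 2121. With that scaling 2 members were called higher at 72 h, SRD5A1 and HSD17B11, and 2 lower, AKR1C3 and HSD17B14, while STS and DHRS7 fell under the fold limit.

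The same comparison under an inhibitor gave an overlapping set. Under Senexin B, R1881 raised HSD17B11 and DHRS7 (9.97% of all genes were called higher) and lowered no member (8.9%), with AKR1C3 alone lower at an unadjusted p under 0.05 and none lower by DESeq2. Under SNX631, R1881 raised SRD5A1, HSD17B11, STS and DHRS7 (10.1%) and lowered AKR1C1 and AKR1C3 (12%). Library totals alone shifted this last comparison by 0.11 and turned 1619 higher and 1924 lower genes into 1311 and 2435.

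The inhibitors themselves called no member in any of their 4 contrasts by edgeR or by DESeq2. The shares of all genes called were 2.02% higher and 1.77% lower for Senexin B without R1881, 1.61% and 1.5% for Senexin B with R1881, 2.82% and 1.94% for SNX631 without R1881, and 1.89% and 2.24% for SNX631 with R1881. At an unadjusted p under 0.05 the members numbered 5, 3, 3 and 6 in these contrasts by edgeR and 3, 3, 3 and 6 by DESeq2. The interaction, which asks whether R1881 acted differently under the inhibitor, called no member at 24 h (0.577% of all genes) or at 72 h (1.19%). Its unadjusted p was under 0.05 for 2 members in each experiment by edgeR, and for 2 and 1 by DESeq2. The share of all genes at that unadjusted p is not given here, so the inhibitor and interaction counts at it have no baseline. Several members nonetheless passed the FDR limit at folds under 1.5, and these are described with each gene below. R1881 and inhibitor contrasts of 1 experiment share control libraries.

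**Figure D2:**
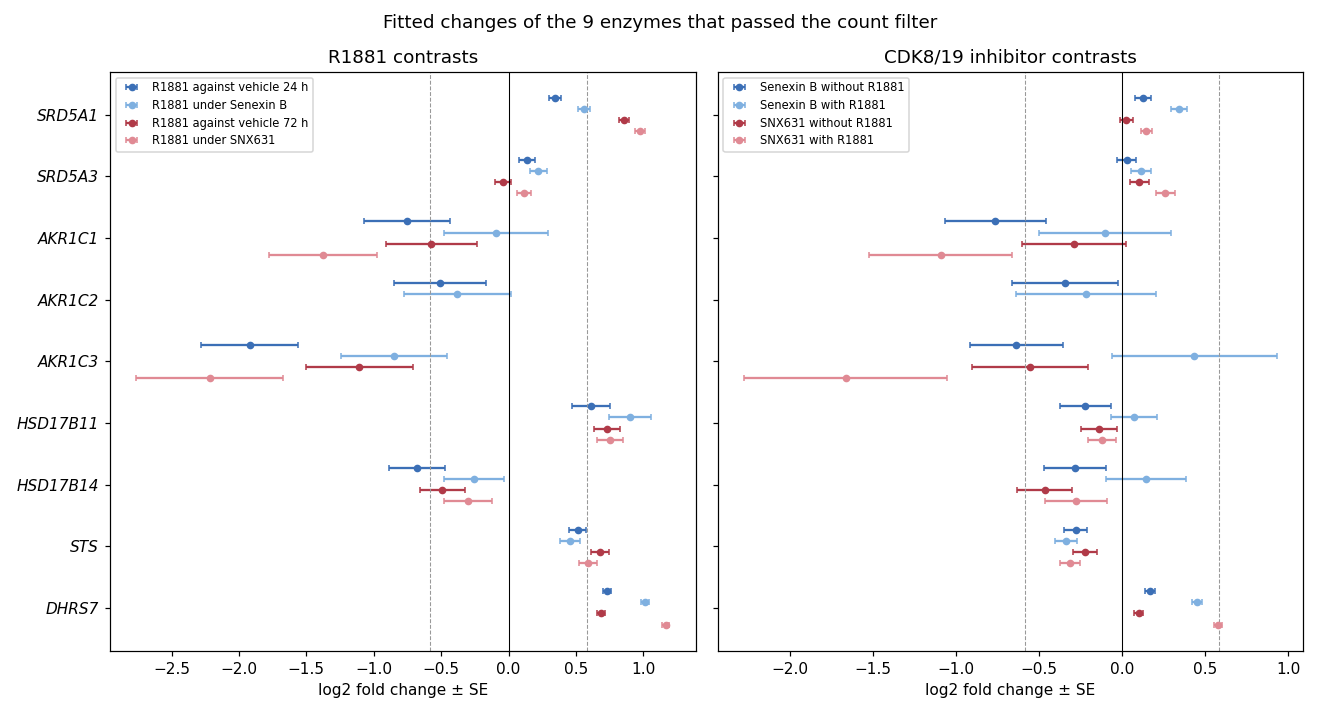
The x axis gives the log2 fold change with its SE for R1881 (left) and for the inhibitors (right), with 1 row per enzyme; colours mark the 4 contrasts of each panel, dashed lines the fold limit of 1.5, and AKR1C2 has no value at 72 h. R1881 changes of DHRS7, HSD17B11, STS and SRD5A1 lie to the right of 0, those of AKR1C3 to the left, and the inhibitor changes lie inside the dashed lines except for AKR1C1 and AKR1C3, whose errors are wide.

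Of the 5-alpha-reductases, SRD5A1 was raised by R1881 at 72 h and SRD5A3 was called in no contrast. SRD5A1 makes dihydrotestosterone from testosterone in many tissues. SRD5A1 at 24 h read 55.1, 56.2 and 58.2 CPM in vehicle, 59.8, 61.8 and 64.6 with Senexin B, 72.7, 72.9 and 71.1 with R1881, and 96.9, 89.6 and 88.1 with both. No 2 groups overlapped, and their order was vehicle, Senexin B, R1881 and the combination. The log2 change with R1881 was 0.34 ± 0.05 (FDR 1.5e-07, edgeR), a 1.27-fold difference under the fold limit, and 0.56 ± 0.05 under Senexin B (FDR 3.43e-12, 1.48-fold). Without replicate 3 of the combination the latter value was 0.59, which passed the limit.

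At 72 h, where R1881 was given at the higher dose, SRD5A1 rose. It read 56.3, 53.3, 56.5 and 55.2 CPM in vehicle, 58.3, 57.4, 54.3 and 55.2 with SNX631, 99.3, 97.6, 105.2 and 98.5 with R1881, and 111, 108, 112 and 112 with both. Vehicle and SNX631 overlapped, and both R1881 groups stood apart from them and from each other. The log2 change with R1881 was 0.86 ± 0.04 (1.81-fold, FDR 9.27e-22) and under SNX631 0.98 ± 0.04 (1.97-fold, FDR 2.77e-24). In the presence of R1881, SRD5A1 was higher with either inhibitor, by 0.34 ± 0.05 with Senexin B (FDR 7.07e-07) and 0.14 ± 0.03 with SNX631 (FDR 4.02e-04), both under the fold limit. The interaction was 0.22 ± 0.07 at 24 h (FDR 0.0538) and 0.12 ± 0.05 at 72 h (FDR 0.139).

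SRD5A3 is a polyprenol reductase needed for the dolichol of protein glycosylation and has also been described as a 5-alpha-reductase. Fractional counts of SRD5A3 occurred in 19 of 28 libraries, and no single gene completed them all to whole counts. SRD5A3 was not called in any contrast. Its group means at 24 h lay between 31.9 ± 1.64 CPM in vehicle and 38.3 ± 1.78 with R1881 and Senexin B (SD, n = 3), and at 72 h between 33.2 ± 1.27 with R1881 and 39.6 ± 2.74 with R1881 and SNX631 (n = 4). The values past the FDR limit were R1881 under Senexin B, at 0.22 ± 0.06 (FDR 0.00234), and SNX631 with R1881, at 0.26 ± 0.06 (FDR 2.57e-04). In that last comparison the 4 combination libraries read 35.9, 41.3, 42.1 and 39.3 CPM, all above the 4 R1881 libraries at 33.4, 32.4, 34.9 and 32.1.

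Of the aldo-keto reductases of the AKR1C cluster, where a library held few reads, AKR1C3 fell with R1881 at 24 h and under SNX631, AKR1C1 was called lower under SNX631, and AKR1C2 was called in no contrast where it was tested. AKR1C3, also called type 5 17-beta-hydroxysteroid dehydrogenase, reduces androstenedione to testosterone. Its 24 h values were 2.07, 1.06 and 2.30 CPM in vehicle, 1.48, 0.995 and 1.22 with Senexin B, 0.367, 0.706 and 0.432 with R1881, and 0.678, 0.382 and 0.937 with both. Every R1881 library lay below every vehicle library, and AKR1C3 fell with R1881 by 1.92 on the log2 scale, with an SE of 0.36 (FDR 2.87e-05). Under Senexin B the change was -0.85 ± 0.39 (FDR 0.06), and the interaction of 1.07 ± 0.57 (FDR 0.347) did not show that the responses differed.

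At 72 h AKR1C3 read 1.57, 1.60, 0.429 and 1.09 CPM in vehicle, 0.437, 0.615, 0.880 and 1.28 with SNX631, 0.942, 0.414, 0.446 and 0.439 with R1881, and 0.0799, 0.0714, 0.344 and 0.147 with both. These are 1 to 5 counts per library in the combination and 5 to 21 in vehicle. Vehicle and R1881 overlapped, and their difference of -1.11 ± 0.40 missed the FDR limit (FDR 0.0137). With all libraries it passed with library totals (-1.21, FDR 0.00706) and with no filter on low counts (-1.09, FDR 0.00787). It also passed without replicate 3 of vehicle (-1.37, FDR 0.0016) or without replicate 1 of R1881 (-1.43, FDR 0.00534). Under SNX631, R1881 lowered AKR1C3, with a log2 change of -2.22 ± 0.54 (FDR 3.70e-04) and no overlap. SNX631 with R1881 gave -1.66 ± 0.61 (FDR 0.021), with every combination library below every R1881 library. Without replicate 3 of the combination this value was -2.34 (FDR 0.00795).

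AKR1C1, which inactivates progesterone, and AKR1C2, which reduces dihydrotestosterone to a weak diol, share so much sequence that the split of reads between them is uncertain. Both had whole counts in all 28 libraries. AKR1C1 read 1.78, 1.20 and 1.45 CPM in 24 h vehicle against 1.10, 0.618 and 0.864 with R1881, with no overlap and a log2 difference of -0.75 ± 0.32 that missed the limit (FDR 0.0411). Under SNX631 at 72 h it was called lower with R1881, at -1.38 ± 0.40 (FDR 0.00249). The libraries with SNX631 read 0.962, 0.922, 0.400 and 1.62 CPM and those with both 0.559, 0.286, 0.275 and 0.366, so the groups overlapped. The call was lost without replicate 4 of SNX631 (-1.03, FDR 0.0335) and without replicate 3 of the combination (-1.26, FDR 0.0107). It was also lost when AKR1C1 and AKR1C2 were summed (-0.66, FDR 0.0424). AKR1C2 itself ranged from 0.267 to 1.45 CPM over the 28 libraries and was not called where tested.

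Summed over AKR1C1, AKR1C2 and AKR1C3, the counted reads were lower with R1881 at 24 h (-1.05, FDR 5.85e-05) and at 72 h (-0.76, FDR 0.00317). The sum does not depend on how counted reads were split among these genes, and says nothing of reads left uncounted. AKR1C3, called lower by itself at 24 h, is part of the sum.

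Of the 17-beta-hydroxysteroid dehydrogenases, HSD17B2 was detected almost only with R1881. It oxidises testosterone and estradiol to weaker steroids. It had 0 counts in all 3 vehicle and all 3 Senexin B libraries at 24 h and in all 4 vehicle libraries at 72 h, and 1 count in 1 of the 4 SNX631 libraries. The R1881 libraries held 7, 2 and 5 counts in the first experiment and 3, 7, 4 and 4 in the second. Those with R1881 and Senexin B held 7, 9 and 5, and those with R1881 and SNX631 held 12, 17, 13 and 11. Every library with R1881 was above every library without it.

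A floor was set at 3 counts in each control library. The mean of HSD17B2 with R1881 was 2.17-fold the vehicle floor at 24 h (0.417 ± 0.23 CPM, SD, n = 3). At 72 h the mean was 1.64-fold the floor (0.400 ± 0.12 CPM, n = 4). These values leave out the counting error of the R1881 libraries. Replicate 2 of R1881 at 24 h, at 0.176 CPM, lay below the floor of 0.193 CPM. Under Senexin B the mean with R1881 was 2.64-fold the floor. Under SNX631 the ratio of summed counts, 53 against 1, was 47.2 with a 95% exact interval of 8.11 to 1899, which covers counting error only. With R1881 present, the groups with and without SNX631 held 53 against 18 counts, a ratio of 2.38 (1.37 to 4.32), and no library overlapped. Senexin B gave 21 against 14, a ratio of 1.44 (0.701 to 3.07), and overlapped. A two-sided exact permutation test over libraries gave p = 0.0286 for each 72 h comparison with R1881, the smallest that 4 against 4 allows, and 0.0667 after adjustment over 7 comparisons. The same exact test at 24 h gave p = 0.1 for R1881 with or without Senexin B, the smallest that 3 against 3 allows, and p = 0.5 for Senexin B with R1881. Fitted by edgeR with no filter on low counts, R1881 against vehicle passed both limits at 24 h (FDR 1.91e-05) and 72 h (FDR 4.54e-06), as it did under Senexin B (FDR 7.87e-06) and SNX631 (FDR 9.98e-12), and SNX631 with R1881 did not (FDR 0.0142).

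HSD17B11 oxidises androstanediol to androsterone and sits on lipid droplets. The 24 h libraries read 7.89, 6.21 and 5.29 CPM in vehicle, 5.98, 4.98 and 4.57 with Senexin B, 8.63, 7.59 and 11.4 with R1881, and 9.99, 9.55 and 9.53 with both. Vehicle and R1881 overlapped by 1 library, and the rise of 0.61 ± 0.14 (1.52-fold, FDR 4.14e-04) was close to the fold limit. It fell under a limit without replicate 3 of vehicle (0.41, FDR 0.0296), without replicate 3 of R1881 (0.43, FDR 0.0184), with library totals (0.53) and with DESeq2 (0.56). Under Senexin B the groups were apart and the rise was 0.90 ± 0.15 (FDR 7.44e-06).

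At 72 h HSD17B11 read 6.96, 9.62, 9.44 and 9.52 CPM in vehicle, 7.87, 7.69, 8.16 and 8.69 with SNX631, 15.5, 15.6, 14.8 and 13.5 with R1881, and 11.8, 14.4, 12.8 and 15.4 with both. R1881 raised it by 0.73 ± 0.10 (FDR 2.25e-08), and by 0.75 ± 0.10 under SNX631 (FDR 1.11e-08), with no overlap in either. No inhibitor contrast reached an unadjusted p under 0.05. HSD17B11 had fractional counts in 17 of 28 libraries, and in all 17 they were completed to whole counts, within 0.015, by those of ENSG00000255723, a gene that overlaps its end on the same strand at chr4:87317170-87345210. That gene held at most 18.6% as many counts as HSD17B11 in a library.

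HSD17B14 is a cytosolic enzyme that can oxidise estradiol. HSD17B14 read 3.94, 3.95 and 3.84 CPM in vehicle and 2.85, 1.76 and 2.68 with R1881, without overlap, at 24 h and was called lower (-0.68 ± 0.21, FDR 0.00517). The call did not hold without replicate 2 of vehicle (FDR 0.0116), replicate 3 of vehicle (FDR 0.019) or replicate 2 of R1881 (-0.48, FDR 0.0612), or with DESeq2 (FDR 0.0189). At 72 h the vehicle libraries read 3.48, 3.74, 3.69 and 2.97 CPM and the R1881 libraries 2.30, 2.16, 2.67 and 2.72, a difference of -0.49 ± 0.17 (FDR 0.0112) without overlap. With library totals this difference was -0.59 and was called (FDR 0.00229). The SNX631 libraries, at 2.36, 2.31, 2.72 and 2.64 CPM, also lay below all vehicle libraries, with a difference of -0.47 ± 0.16 (FDR 0.0225).

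STS, the steroid sulfatase, lay higher with R1881 and lower with the inhibitors. STS at 24 h read 30.1, 28.3 and 28.8 CPM in vehicle, 26.0, 21.7 and 23.6 with Senexin B, 42.5, 37.4 and 44.2 with R1881, and 32.0, 33.6 and 32.6 with both. No groups overlapped, and their order from lowest to highest was Senexin B, vehicle, the combination and R1881. The log2 change with R1881 was 0.52 ± 0.06 (1.43-fold, FDR 2.10e-08) and under Senexin B 0.46 ± 0.07 (FDR 2.21e-06), both under the fold limit. Without replicate 2 of R1881 the former was 0.59 and passed it. Senexin B gave -0.28 ± 0.07 without R1881 (FDR 0.00161) and -0.34 ± 0.07 with R1881 (FDR 1.81e-04).

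At 72 h STS read 23.7, 23.4, 21.5 and 24.1 CPM in vehicle, 19.9, 21.5, 21.3 and 16.4 with SNX631, 35.8, 37.6, 38.9 and 35.8 with R1881, and 29.9, 30.7, 26.7 and 32.2 with both. R1881 raised STS by 0.68 ± 0.07 (1.60-fold, FDR 1.90e-11) and, at 1.50-fold, by 0.59 ± 0.07 under SNX631 (FDR 1.26e-09). The second value stood at the fold limit and fell under it without replicate 4 of SNX631 (0.51) and without replicate 2 (0.57) or 4 (0.55) of the combination. With library totals both fell under it (0.58 and 0.48). SNX631 gave -0.31 ± 0.06 with R1881 (FDR 6.26e-05), without overlap, and -0.22 ± 0.07 without R1881 (FDR 0.0143), with overlap. The interaction was -0.06 ± 0.10 at 24 h (FDR 0.837) and -0.09 ± 0.10 at 72 h (FDR 0.64). STS had fractional counts in 15 libraries, all completed within 0.015 by those of MIR4767, a microRNA gene that held at most 2.51% as many counts. MIR4767 lies upstream of the GENCODE 29 interval of STS, so the gene model used for counting may be longer than the one behind the level of STS per kb given above.

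DHRS7, a membrane-bound short-chain dehydrogenase with reported reductase activity on steroids including dihydrotestosterone, had the smallest SE of the members tested in each contrast. In the first experiment DHRS7 read 319, 328 and 331 CPM in vehicle, 363, 358 and 377 with Senexin B, 530.5, 549 and 542 with R1881, and 741, 725 and 749.5 with both. In the second it read 208, 202, 206 and 211 CPM in vehicle, 215, 222, 228 and 221 with SNX631, 350.3, 322, 326 and 332 with R1881, and 503, 482, 494 and 508 with both. In each experiment no groups overlapped, and the order was vehicle, inhibitor, R1881 and the combination.

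R1881 raised DHRS7 by 0.73 ± 0.03 at 24 h (1.66-fold, FDR 1.46e-19) and by 0.69 ± 0.03 at 72 h (1.61-fold, FDR 7.29e-23). Under the inhibitors the rise was 1.01 ± 0.03 with Senexin B (2.02-fold) and 1.16 ± 0.03 with SNX631 (2.24-fold). With library totals the 72 h value without inhibitor was 0.58, just under the limit. The difference with Senexin B was 0.17 ± 0.03 without R1881 (FDR 8.74e-05) and 0.45 ± 0.03 with it (FDR 4.05e-13). SNX631 gave 0.10 ± 0.03 without R1881 (FDR 0.00489) and 0.58 ± 0.03 with it (FDR 2.71e-20), the latter at 1.49-fold. The latter passed the fold limit without replicate 1 of R1881 (0.61) and without replicate 2 of the combination (0.59). The interaction was positive in both experiments, 0.28 ± 0.04 at 24 h (FDR 5.55e-05) and 0.48 ± 0.04 at 72 h (FDR 5.13e-12). DHRS7 was the only member whose interaction passed the FDR limit in either.

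**Figure D3:**
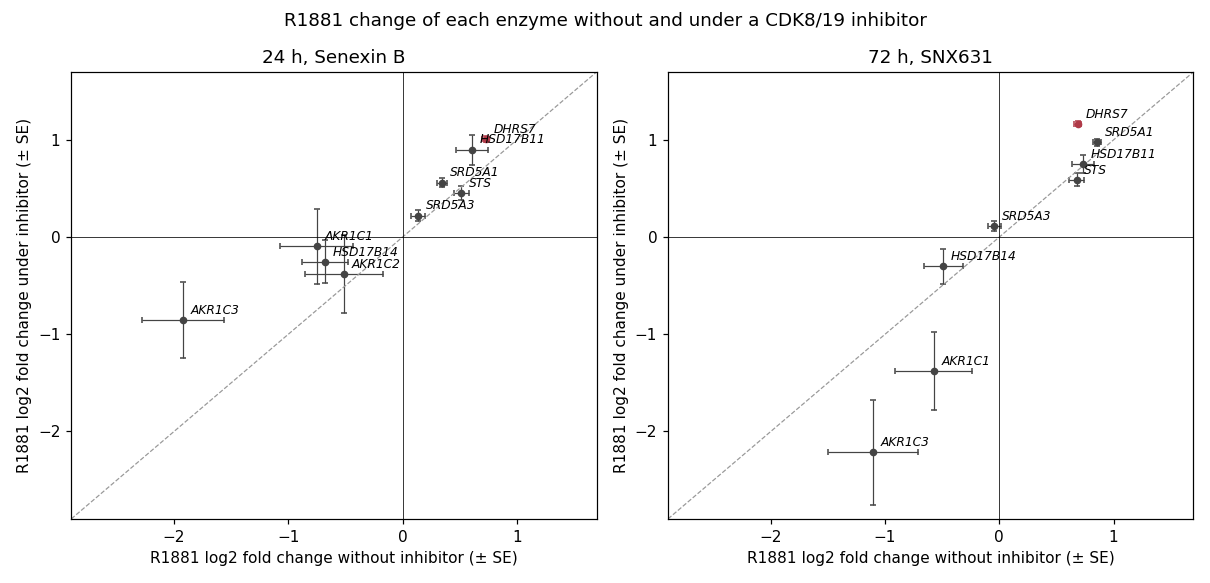
Each point is 1 enzyme, with the log2 fold change of R1881 without inhibitor on the x axis and under inhibitor on the y axis, both with SE, for 24 h (left) and 72 h (right); the dashed line marks equal change. DHRS7, in red, lies above the line in both experiments, at 0.73 and 1.01 at 24 h and at 0.69 and 1.16 at 72 h, while the error bars of the AKR1C genes span a wide range.

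The genes whose level over the 28 libraries was most like that of the members raised in both experiments were named by the Pearson correlation of log2 CPM among 15681 genes, as a description, since all points share the 8 treatments. For DHRS7 they were NDOR1 (r = 0.982), GAMT (0.978) and IRAK1 (0.975). For HSD17B11 they were EHF (0.937), CALML4 (0.936) and YES1 (0.929). Among the 8 members tested in both experiments, SRD5A1 and HSD17B11 were closest, with r = 0.742, and SRD5A1 and AKR1C3 were furthest apart, with r = -0.71.

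The remaining steps of the pathway were read from a list of 53 genes of steroid synthesis, sulfation, glucuronidation, oxidation and uptake, of which 29 were tested in at least 1 experiment. The other 24 never exceeded 8 counts in a library, and 7 of them had no count in any. R1881 against vehicle called 3 of 27 tested higher and 5 lower at 24 h, and 5 of 28 higher and 6 lower at 72 h. Beside these counts stand 9.81% (higher) and 9.19% (lower) of all genes in the first experiment. In the second experiment the shares, in the same order, were 9.7% and 10.1%. The median log2 change over the list was 0.04 in both experiments. Under Senexin B, R1881 called 4 higher and 6 lower, and under SNX631 3 higher and 5 lower. The shares of all genes were 9.97% and 8.9% under Senexin B, and 10.1% and 12% under SNX631. CYP11A1 is among the genes called higher in each R1881 comparison, and it passed the count filter only through groups with R1881. The inhibitors called 1 higher and 6 lower without R1881, and 1 higher and 4 lower with R1881, for Senexin B as for SNX631. Senexin B called 2.02% of all genes higher and 1.77% lower without R1881, and 1.61% and 1.5% with it. For SNX631 the shares were 2.82% and 1.94% without R1881, and 1.89% and 2.24% with it. The interaction called 0 genes at 24 h by edgeR, beside 0.577% of all genes, and 1 at 72 h, beside 1.19%. At 24 h 7 had an unadjusted p under 0.05, a limit for which the share of all genes is not given here.

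CYP11A1 encodes the enzyme that cuts the cholesterol side chain, the entry step to all steroids. It had 1 to 3 counts per library in 24 h vehicle and 24 to 40 with R1881, and 0 to 2 in 72 h vehicle and 41 to 47 with R1881. The ratio of summed counts was 32.0 (95% exact interval 13.2 to 101) at 24 h and 63.3 (21.3 to 310) at 72 h. CYP11A1 passed the count filter only through the groups with R1881, so its fitted calls give no support. FDX1 and FDXR, listed with the early steps but outside the rule for naming, were called lower with R1881 at 72 h. They changed by -0.89 ± 0.06 (FDR 1.76e-15, edgeR) and -0.60 ± 0.08 (FDR 7.16e-08). At 24 h they lay at -0.50 and -0.46, under the fold limit. CYP17A1, of the same steps, never exceeded 1 count in a library. CYB5A, the cytochrome b5 that aids the lyase step of CYP17A1, rose with R1881 by 0.88 ± 0.03 at 24 h (FDR 7.6e-21) and 0.87 ± 0.03 at 72 h, from 135 ± 0.60 to 248 ± 7.78 CPM and from 141 ± 3.97 to 259 ± 5.45. CYP3A5, which hydroxylates testosterone, rose by 1.87 ± 0.17 and 1.08 ± 0.13, and fell with Senexin B by 1.37 and with SNX631 by 0.96 in the absence of R1881.

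Among the conjugating enzymes, SULT2B1, a sulfotransferase of cholesterol and related steroids, was lower with the inhibitors in all 4 contrasts, by -0.87 ± 0.13 and -0.83 ± 0.20 with Senexin B without and with R1881, and by -0.85 ± 0.14 and -0.76 ± 0.16 with SNX631. Its call for Senexin B with R1881 was lost without replicate 3 of R1881 (-0.74, FDR 0.0115). Of the glucuronidating UGT2B genes, UGT2B15 and UGT2B17, which inactivate dihydrotestosterone, fell with R1881 from 488 ± 3.64 to 75.3 ± 2.20 CPM and from 308 ± 14.5 to 75.2 ± 1.95 CPM at 24 h, and from a mean of 1069 to 236 CPM and of 425 to 159 CPM at 72 h. UGT2B28 fell with both inhibitors but rose with R1881 at 72 h (0.61 ± 0.05, FDR 1.47e-14), a call lost with library totals (0.50) and without replicate 4 of vehicle (0.57). UGT2B7 fell with R1881 in both experiments and rose with SNX631, by 1.08 ± 0.14 without R1881 and 1.29 ± 0.20 with it. UGT2B11 also met the rule for naming, and its values stand in the plot of the pathway genes. Fractional counts, from shared reads, occurred for UGT2B7, UGT2B11, UGT2B15, UGT2B17 and UGT2B28. With which genes these reads were shared was not examined, so the split of reads among the UGT2B genes is uncertain.

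**Figure D4:**
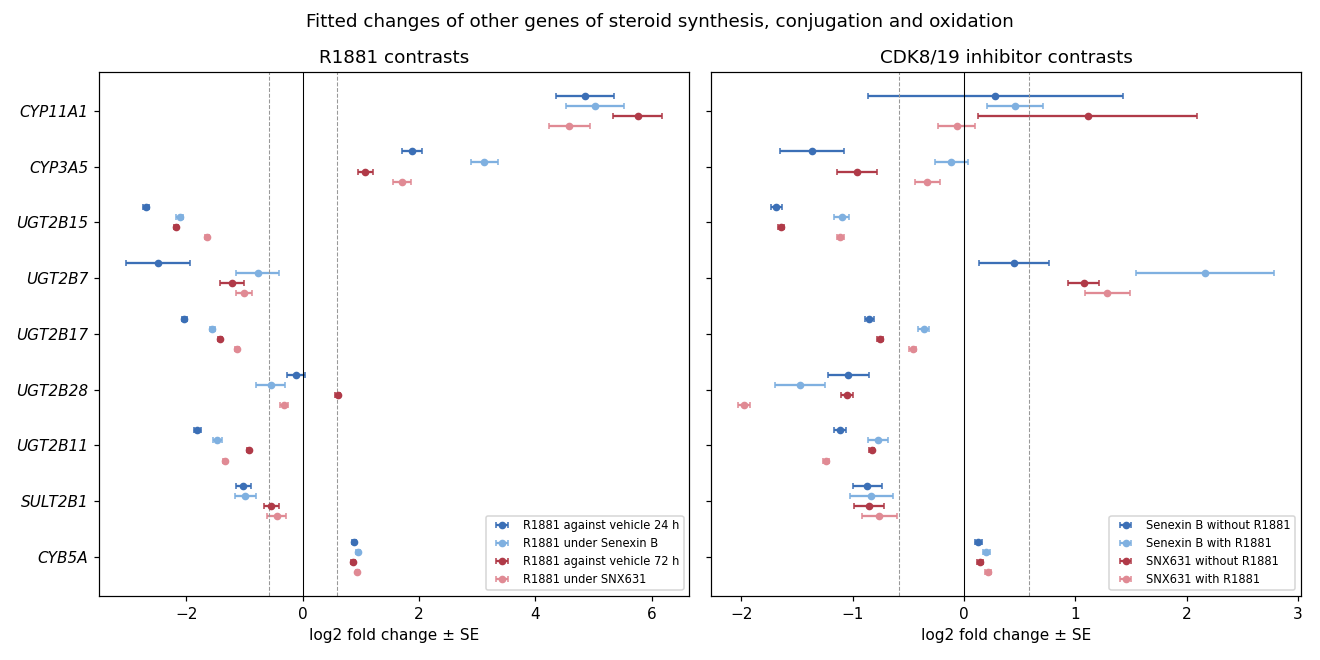
The x axis gives the log2 fold change with its SE for R1881 (left) and for the inhibitors (right), for the 9 pathway genes named by rule, 1 per row; colours mark the contrasts and dashed lines the fold limit of 1.5. CYP11A1, CYP3A5 and CYB5A lie to the right with R1881, while UGT2B15, UGT2B17 and UGT2B11 lie to the left both with R1881 and with the inhibitors. CYP11A1 passed the count filter only through the groups with R1881.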

How the data were processed

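Total RNA from LNCaP cells was sequenced from directional libraries, and the authors deposited expected counts per gene, unscaled, in 1 table. Per the submitters' processing notes the tools were FastQC, cutadapt 2.8, STAR 2.7.2b and featureCounts of Subread 2.0.3, with the builds GRCh38.p13 and GRCm39; the annotation release and the use of strand are not given in the sources used here. Reads shared by genes give fractions (16.9% of values above 0), so counts were rounded. The 2 added entries that are not human genes were 0 throughout and were left out. Columns that hold the study's own fold changes, in its supplement, were not used.

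The experiments were fitted separately, 4 groups each, by the quasi-likelihood F test of edgeR 4.0.16 (R 4.3.3), after TMM scaling and a filter (filterByExpr, minimum count 10, minimum total 15), with Benjamini-Hochberg adjustment over all genes. The limits for a call (FDR under 0.01, fold over 1.5) are those of the study. Errors of log2 changes are SEs worked back from the test, as the size of the log2 change fitted without shrinkage over the square root of F. HSD17B2, under the filter, was compared by exact permutation tests (scipy 1.17.1) and exact 95% binomial intervals. Intervals and the floor of 3 counts cover counting error only, as reads were not tied to single molecules by identifiers. Depth was 9846595 to 33809419 counts. Levels per kb use GENCODE 29 exon lengths, matched by gene identifier without version.

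The members, the gene lists, the markers and the rule for named genes were chosen with earlier results of these data known. The rule took all members, pathway genes called the same way for R1881 in both experiments or in at least 2 inhibitor contrasts (at most 10), KLK3, KLK2 and FKBP5, and the 3 genes most like each member raised in both experiments. Libraries of a group are biological replicates per the study's methods, and the labels do not say whether they came from separate cultures; p-values measure the spread between them. Doses are those of the labels. Replicate pairs differed beyond sampling noise. The pipeline was tested on simulated data. Alternatives were other scalings, DESeq2 1.42.0, no filter, no rounding, 1 fit of all 28 libraries, other limits, a test against a fold of 1.5, a replicate block, leaving out each library and summing AKR1C genes. Figures were drawn with matplotlib 3.10.9.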

Additional observations from a re-analysis of the deposited data

Results flagged for a closer look

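In groups of 4 libraries, a library was looked at again when its gap to the nearest other was large for the group's range (Dixon's test at 95%). Of 39 groups of members examined at 72 h, 4 had such a library. Chance gives about 1 in 20 for normal values, which groups of a few counts are not, so the 2 rates cannot be compared. AKR1C3 was highest in replicate 1 of R1881, at 0.942 CPM. HSD17B11 was lowest in replicate 1 of vehicle, at 6.96 CPM. HSD17B2 was highest in replicate 2 of R1881, at 0.580 CPM, and in replicate 2 of SNX631, at 0.0769 CPM, which is 1 count. The other SNX631 libraries held 0 counts, so the test flags that group whatever the size of its highest count.

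For DHRS7 the effect of R1881 differed with and without the inhibitor by a test of the difference itself, the interaction term of edgeR: 0.28 on the log2 scale at 24 h (FDR 5.55e-05) and 0.48 at 72 h (FDR 5.13e-12). All 3 libraries with R1881 and Senexin B, and all 4 with R1881 and SNX631, stood above every R1881 library. Both values are under the fold limit of 1.5.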

How the results depend on the processing

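For the members, 43 log2 changes at an FDR under 0.05 were recomputed 917 times in all. In 886 of these the direction and the call stayed, in 17 a call was lost, in 14 one was gained and in 0 the direction turned. Members were called 4, 2, 4 and 6 times for R1881 (24 h, under Senexin B, 72 h, under SNX631) and 0 times in the other contrasts. The 886 therefore include values that were uncalled and stayed so. For the named pathway genes 1130 of 1138 recomputed values kept theirs and 8 lost a call. Calls that changed under another FDR or fold limit are not among the changes counted here.

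The number of members called for R1881 against vehicle at 24 h, 4, became 2 with DESeq2, 8 at FDR under 0.05 with no fold limit, 2 when tested against a fold of 1.5, and 2 to 4 when 1 library was left out. At 72 h it was 4, all higher, and 2 when tested against a fold of 1.5. With library totals it was again 4, but 2 higher (SRD5A1, HSD17B11) and 2 lower (AKR1C3, HSD17B14). AKR1C3 was also called lower there with no filter (FDR 0.00787) and without vehicle replicate 3 (FDR 0.0016) or R1881 replicate 1 (FDR 0.00534). Under Senexin B it was 2, against 5 with no fold limit and 1 when tested against a fold of 1.5. With no fold limit the inhibitor contrasts called 4 members for Senexin B without R1881 and 3 with R1881. For SNX631 they called 3 without R1881 and 6 with R1881, and the interactions called 1 each. The shares of all genes by DESeq2, with no fold limit or tested against a fold of 1.5 are not given here. The counts of members under those settings therefore have no baseline. SNX631 with R1881, at 0, became 1 without the filter on low counts (DHRS7), 2 in the fit of all 28 libraries (DHRS7 and HSD17B2) and 0 to 1 with 1 library left out. HSD17B2 entered the fit of all libraries, and some fits with a library left out, chiefly through the group with R1881 and SNX631, where it was high, so its calls there give no support. DESeq2 size factors and unrounded counts changed no count of members called.

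The numbers in the labels did not pair the libraries: same-numbered libraries had correlations of their deviations between -0.0677 and 0.073. A replicate block left 4, 2, 4 and 6 members called for R1881 (24 h, under Senexin B, 72 h, under SNX631) and 0 in the other contrasts.

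Depth limits the AKR1C genes and HSD17B2, which had few counts in a library: leaving out 1 library ended or made several of the AKR1C calls, as given beside them, and HSD17B2 was under the filter in both experiments and AKR1C2 at 72 h.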
